A study of Mus musculus with 11 samples.

Results

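Ribosome assembly begins in the nucleolus, and 10 genes of this process were followed in single 8-cell mouse embryos that lacked or kept PRDM10, a zinc finger transcription factor of the PRDM family. The genes were taken by symbol from the 54146 genes in each embryo's table, and all 10 were found and tested. They were *Polr1a*, *Polr1b*, *Ubtf* and *Rrn3*, which act in transcription of ribosomal DNA, *Fbl*, *Nop56*, *Nop58* and *Dkc1*, which encode proteins of the small nucleolar ribonucleoproteins (snoRNPs), and *Ncl* and *Npm1*, which encode the abundant nucleolar proteins nucleolin and nucleophosmin. They were picked as known nucleolar genes by a rule that used no threshold on a measured value, with earlier results of these data known.

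All embryos came from intercrosses of *Prdm10* Δ/+ mice on a C57BL/6 background at embryonic day 2.5, so heterozygous mothers supplied the oocytes of both groups. The 5 mutants were *Prdm10* Δ/Δ, with exon 5 deleted on both alleles. The 6 controls were +/+ or Δ/+, and the labels do not separate these genotypes. Each embryo was assigned by detection of exon 5 in its own cDNA and gave 1 library, made with the Smart-seq2 protocol, which primes on poly(A) tails, and read as single-end 75-base reads without molecular identifiers. The embryos fell into 2 batches that were collected and handled apart and differed in cDNA amplification. Batch 1 (3 controls, 2 mutants) was amplified for 16 cycles and batch 2 (3 controls, 3 mutants) for 13.

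RNA polymerase I transcribes the ribosomal DNA repeats into a single long precursor of the 18S, 5.8S and 28S ribosomal RNAs. Its catalytic core is formed by the products of *Polr1a* and *Polr1b*, which UBTF and RRN3 help to recruit to the ribosomal DNA promoter. The precursor is then cut and chemically modified by snoRNPs, among them box C/D particles with fibrillarin (FBL), NOP56 and NOP58, which methylate ribose, and box H/ACA particles with dyskerin (DKC1), which convert uridine to pseudouridine. In the mouse, the nucleolus is built up from precursor bodies during the cleavage divisions, as transcription of ribosomal DNA resumes. The libraries primed poly(A) RNA, so they report the mRNAs of these proteins and not ribosomal RNA.

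Summed expected counts ranged from 3534735 to 8265840 per library, and 10745 to 11603 genes exceeded 1 TPM, a level corrected for gene length and library size. No pair of the 55 pairs of libraries held identical counts. In the targeted gene, the 6 controls averaged 16.5 ± 4.62 (SD) *Prdm10* TPM and the 5 mutants 6.66 ± 1.47 (SD), without overlap (exact permutation test, two-sided, p = 0.00433, and 0.0100 within batches). Its effective length, the length over which RSEM spreads reads given the isoforms it infers, also separated them, at 3011 ± 334 bases (SD) in the controls and 4746 ± 326 (SD) in the mutants (same exact permutation test, p = 0.00216, and 0.00500 within batches, each the smallest it can give), and it enters the TPM. Normalised counts of *Prdm10* overlapped, running from 124 to 381 among controls and from 103 to 202 among mutants (same exact permutation test, p = 0.0606, and 0.0250 within batches). Embryos had been assigned to groups by exon 5 of this gene in the same cDNA, so these tests are not an independent check of the labels. Of 10 markers of the cleavage-stage embryo, 9 had a median above 1 TPM, and the exception was *Cdx2* at 0.38 TPM. Of 8 markers of cumulus or granulosa cells, only *Nr5a2*, which early embryos also express, had a median above 1 TPM, and *Foxl2*, *Has2* and *Ptx3* were at 0 in all embryos. None of 5 fibroblast markers had a median above 1 TPM, and their summed level stayed at or below 0.29 TPM in controls and 4.81 TPM in mutants. The oviduct list summed to 36.9 to 74.3 TPM per control and 32.5 to 54.5 TPM per mutant, and 2 of its 5 markers had a median above 1 TPM. These were *Epcam*, which embryos also express, and the oviduct glycoprotein gene *Ovgp1*, which reached 30.1 TPM and had a median of 1.13 TPM in controls and 5.33 TPM in mutants. The blood list ranged from 9.23 to 137 TPM in controls and from 8.76 to 46.3 TPM in mutants, and 2 of its 5 markers had a median above 1 TPM. These were the myeloid genes *Lyz2* and *Cd68*. *Lyz2* had a median of 4.89 TPM in controls and 13.5 TPM in mutants and a highest value of 120.5 TPM, and *Cd68* was at 2.73 to 13.5 TPM. Of the haemoglobin genes, *Hbb-bs* was never above 0.35 TPM. *Hba-a1* reached 8.03 TPM and had a median of 1.475 TPM in controls and 0.56 TPM in mutants. The part of these other markers in the results on nucleolar genes was not tested.

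Levels of the 10 mRNAs covered a wide range in controls. By TPM, which allows genes of different length to be compared, *Npm1* stood first with a median of 4590, and its rank among all genes of the table was 17. *Nop58* followed with a median of 806 TPM, then *Ncl* with 454 and *Nop56* with 264. *Dkc1* had a median of 208 TPM, *Rrn3* of 122 and *Ubtf* of 79.8. *Fbl*, the methyltransferase of the box C/D particle, had a median of 41.9 TPM, close to the 39.5 TPM of *Polr1b*. *Polr1a*, which encodes the largest subunit of RNA polymerase I, came last with 12.2 TPM. The order was the same when medians were taken over all 11 embryos.

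Most neighbours in this order kept their places within each embryo. *Npm1* exceeded *Nop58*, *Nop58* exceeded *Ncl* and *Polr1b* exceeded *Polr1a* in 11 of 11 embryos, as did *Ncl* over *Nop56*, *Dkc1* over *Rrn3* and *Ubtf* over *Fbl*. *Nop56* exceeded *Dkc1* in 10 of 11 embryos. *Rrn3* exceeded *Ubtf* in 7 of 11 embryos, and *Fbl* exceeded *Polr1b* in 9 of 11 but in only 4 of the 6 controls, so these pairs were not ordered beyond the spread between embryos. Among proteins of the same box C/D particle, the level of *Nop58* was 2.20 to 3.88 times that of *Nop56* in single embryos. The level of *Fbl* was 0.110 to 0.360 times that of *Nop56*.

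**Figure D1:**
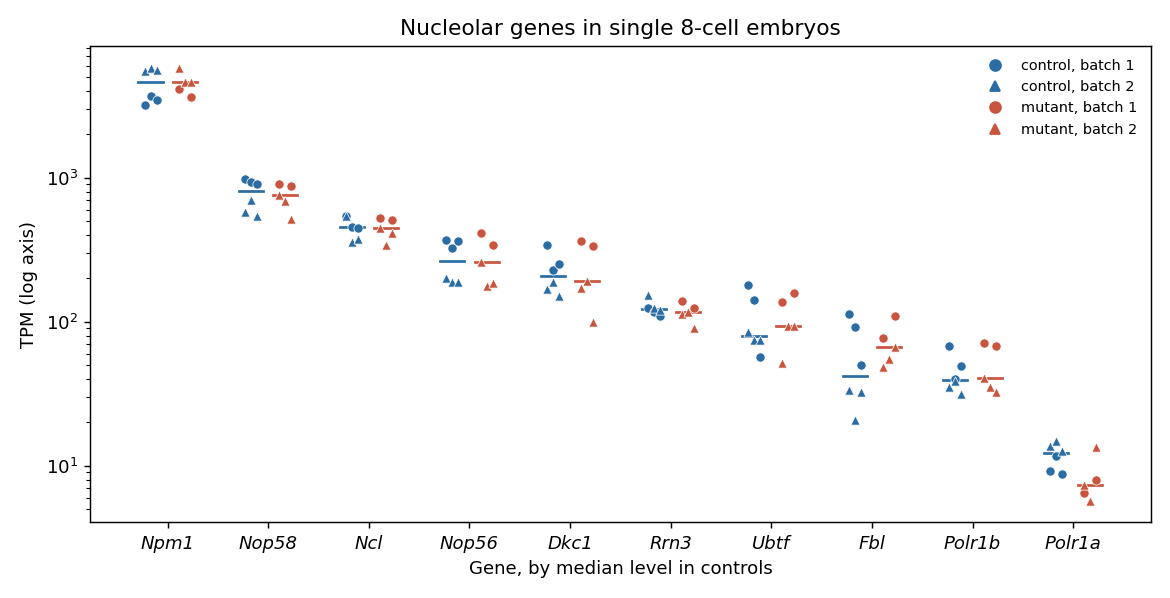
Level of each nucleolar gene in every embryo, in TPM on a log axis, with genes ordered by their median in controls. Points are embryos (circles, batch 1, triangles, batch 2) and lines are group medians, which fall from 4590 TPM for *Npm1* to 12.2 TPM for *Polr1a* in controls.

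Together the 10 genes held 0.570% to 0.746% of all TPM in controls, with a median of 0.657%, and 0.615% to 0.773% in mutants, with a median of 0.629%. *Npm1* alone made up 54.2% to 78.5% of that sum. Batches separated by this share, at 54.2% to 61.1% in batch 1 and 73.0% to 78.5% in batch 2.

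Spread between embryos also differed among the genes. Within a group and batch, the SD of the log2 normalised count (the library's count scaled by DESeq2 for depth) was lowest for *Npm1*, at 0.14, and for *Rrn3*, at 0.15. The median over all 10448 genes tested was 0.52. *Ubtf* (0.44), *Fbl* (0.40) and *Dkc1* (0.30) varied most of the 10. Genes of like expression had a median of 0.25 for *Npm1*, *Rrn3*, *Ubtf* and *Dkc1* and of 0.34 for *Fbl*, in classes of 1045 genes each. Within their class, the SD of *Npm1* exceeded that of 7.75% of genes and the SD of *Rrn3* that of 11.3%. Counting error alone would give 0.037 for *Ubtf* and 0.092 for *Fbl*, where 66 to 616 reads lay behind each value. The latter figures leave out error in assigning shared reads and cover counting error only, since PCR copies were counted as separate reads.

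Mutant and control embryos were compared to ask whether loss of PRDM10 changes the mRNAs of nucleolar assembly. *Polr1a* was lower in mutants, and the other 9 genes did not pass the threshold (DESeq2 with a batch term, adjusted p under 0.05). The 10448 genes tested all had a mean normalised count above 10, and p-values were adjusted before that filter was applied. Of all genes tested, 0.881% were called lower and 0.565% higher, against 1 of the 10 nucleolar genes lower and 0 higher. Over all genes these were 92 lower and 59 higher, but 114 and 151 without control replicate 2. The median log2 fold change was 0.01 over the 10 genes and 0.00 over all genes. The edgeR test called none of the 10 and 0.334% of all genes, and 2 of the 10 and 9.49% of all genes had an unadjusted p under 0.05.

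*Polr1a* (ENSMUSG00000049553.11, chromosome 6 from 71909053 to 71984935, plus strand, GRCm38) carries the catalytic centre of RNA polymerase I together with *Polr1b*. In batch 2, its normalised count was 341, 438 and 373 in the controls and 197, 165 and 191 in the mutants. In batch 1, it was 271, 223 and 212 in the controls and 135 and 207 in the mutants. Every mutant was thus below every control, a separation in that direction that 0.632% of genes tested showed, although the nearest values, 207 and 212, almost met. DESeq2 gave a log2 fold change of -0.79 ± 0.20 (SE; adjusted p = 0.0148), and 132 to 412 reads per embryo lay behind it. Because each library is a whole embryo, fewer cells that express a gene and less RNA per cell cannot be told apart.

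The call on *Polr1a* rested on the test and the scale. Its adjusted p was 0.188 with edgeR, at nearly the same log2 fold change of -0.79, and 0.512 with limma on log2(TPM + 1), where the change was -0.54. Batch 2 alone gave -1.06 ± 0.30 (SE) and batch 1 alone -0.46 ± 0.35, neither past the threshold, with adjusted p of 0.0897 and 0.992. Leaving out control replicate 3, mutant replicate 2, mutant replicate 3 or mutant replicate 4 also ended the call, with adjusted p of 0.0567 to 0.0964 and changes of -0.77 to -0.72.

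On the TPM scale the groups overlapped. *Polr1a* TPM was 13.7, 14.8 and 12.7 in batch 2 controls and 7.38, 5.72 and 13.4 in batch 2 mutants, followed by 9.12, 11.7 and 8.69 in batch 1 controls and 6.47 and 8.00 in batch 1 mutants. The means were 11.8 ± 2.45 (SD, n = 6) and 8.20 ± 3.05 (SD, n = 5), and the two-sided exact permutation test gave p = 0.0671 over all splits of the embryos and p = 0.0300 when embryos were permuted only within their batch. Mutant replicate 3 was the high value, at 13.4 TPM. Its effective length of *Polr1a* was 2839 bases, against 4428 to 7489 bases in the other 10 embryos. Without that embryo, the mutants averaged 6.89 ± 1.00 TPM (SD, n = 4). Effective length itself gave p = 0.372 in the same exact permutation test and p = 0.405 within batches, with means of 5636 ± 1066 bases (SD) for the 6 controls and 4925 ± 1216 (SD) for the 5 mutants. With effective length as an offset in the count fit, the change was -0.54, with an adjusted p of 0.283.

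**Figure D2:**
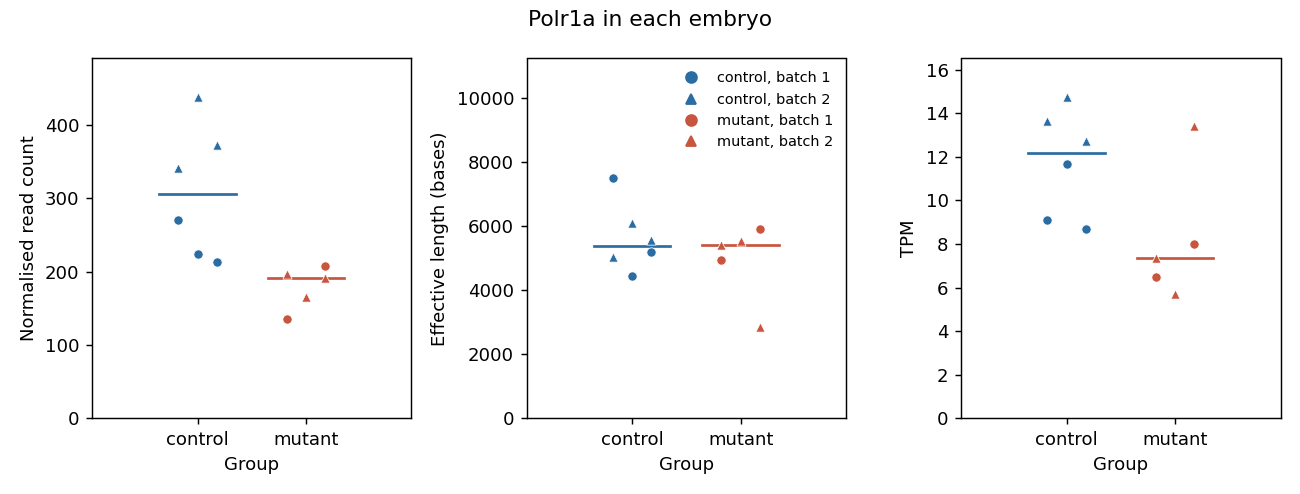
*Polr1a* in each embryo as a normalised read count, as the effective length in bases, and as TPM, with controls and mutants side by side, batches as symbols and lines at group medians. Counts of mutants (135 to 207) lie below those of controls (212 to 438), whereas in TPM mutant replicate 3, which has the shortest effective length (2839 bases), lies among the controls.

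*Polr1b*, the second largest subunit, was not lower in mutants. Its normalised count ran from 595 to 961 in controls (median 683) and from 602 to 1130 in mutants (median 773). In batch 2 the groups overlapped, and in batch 1 both mutants (1079 and 1130) lay above all controls (638 to 961), as for 11.8% of genes tested there. DESeq2 put the difference at 0.22 ± 0.16 (log2, SE; adjusted p = 0.638). The ratio of *Polr1b* to *Polr1a* TPM was 2.47 to 2.64 in batch 2 controls and 5.49, 6.14 and 2.41 in batch 2 mutants. In batch 1 it was 3.43 to 7.45 in controls and 10.95 and 8.52 in mutants.

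Both initiation factors gave small differences. *Ubtf*, which binds the ribosomal DNA promoter and gene body, had normalised counts of 1041 to 2371 in controls (median 1345) and 906 to 2408 in mutants (median 1669). Its log2 fold change was 0.17 ± 0.22 (SE; 95% interval -0.27 to 0.61). *Rrn3*, which links the polymerase to its promoter factors, had normalised counts of 1713 to 2656 in controls (median 1955) and 1577 to 2088 in mutants (median 1949). Its log2 fold change was -0.09 ± 0.15 (SE; 95% interval -0.39 to 0.20).

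The values of *Rrn3* separated in opposite directions in the batches. In batch 2 it was 2656, 2109 and 2203 normalised counts in controls and 1949, 2088 and 1577 in mutants, all mutants below all controls. In batch 1 it was 1713, 1764 and 1801 in controls and 2055 and 1911 in mutants, all mutants above all controls. Such an opposite separation was seen in 0.814% of genes tested. The interaction of batch and genotype was 0.49 ± 0.28 (SE) on the log2 scale, with an unadjusted p of 0.0791 and an adjusted p of 1.00 (DESeq2), so a difference between the batches was not shown for *Rrn3*. None of the 10 genes passed that interaction test, which 0.0573% of genes did.

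Among snoRNP genes, *Fbl* had the largest difference. Its normalised count in batch 2 was 190, 115 and 193 in controls and 273, 322 and 374 in mutants, all mutants above all controls, as for 6.63% of genes tested in that batch. In batch 1 the groups overlapped, at 504, 446 and 266 in controls and 359 and 536 in mutants. Over both batches the log2 fold change was 0.60 ± 0.25 (SE; 95% interval 0.10 to 1.09), and the adjusted p of 0.283 (DESeq2; unadjusted 0.0182) missed the threshold. *Fbl* also had the least certain read assignment, since the SD that RSEM gave for its count from reads shared with other genes was 4.44% to 13.7% of the count. That SD was at most 0.467% for each of the other 9 genes. Of all 75-base stretches in *Fbl* transcripts, 17.7% also occur in transcripts of other genes, a share close to the 18.1% of *Npm1* and 14.4% of *Nop56*, whose SDs were low.

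The other snoRNP genes differed little between the groups. *Nop56* had 1354 to 2404 normalised counts in controls (median 1748) and 1303 to 2663 in mutants (median 1888), with a log2 fold change of 0.15 ± 0.14 (SE; 95% interval -0.12 to 0.42). *Nop58* had 3016 to 4134 in controls (median 3721) and 2610 to 3967 in mutants (median 3735), with a log2 fold change of -0.01 ± 0.14 (SE; 95% interval -0.28 to 0.27). *Dkc1*, the pseudouridine synthase of the box H/ACA particle, had 1481 to 2549 in controls (median 1769) and 850 to 2869 in mutants (median 1609), with a log2 fold change of 0.03 ± 0.19 (SE; 95% interval -0.34 to 0.40). For *Nop56* and *Dkc1* the batches did not overlap in normalised count, so ranges over both batches had to overlap between the groups. Within batches the groups overlapped for *Nop56* and *Nop58*. *Dkc1* overlapped in batch 2, where mutant replicate 3 was its lowest embryo, and in batch 1 the mutants (2756 and 2869) lay above all controls (1949 to 2549), as for 11.8% of genes tested there.

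*Ncl* and *Npm1* had the most reads of the 10 genes. *Ncl*, which binds pre-ribosomal RNA, had 5967 to 8843 normalised counts in controls (median 6632) and 5709 to 7268 in mutants (median 6253), with a log2 fold change of -0.13 ± 0.14 (SE; 95% interval -0.40 to 0.15). Its direction turned with scaling by length, to 0.02 on TPM and with the length offset. *Npm1*, a chaperone of late ribosome assembly, had 15027 to 32069 in controls (median 24433) and 19516 to 30755 in mutants (median 25663), with a log2 fold change of -0.01 ± 0.13 (SE; 95% interval -0.27 to 0.25). In batch 1, mutants lay below all controls for *Ncl* (6253 and 6395 against 6397 to 6856), as for 11.7% of genes tested there, and above all controls for *Npm1* (19516 and 20894 against 15027 to 19368), as for 11.8%. In batch 2 the groups overlapped for both genes.

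**Figure D3:**
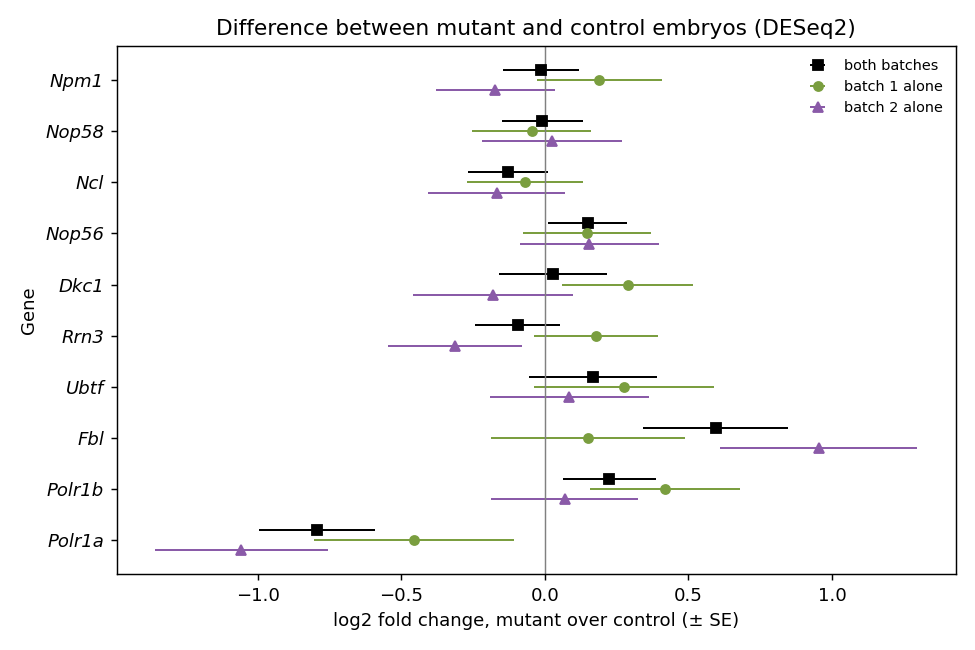
Log2 fold change of mutant over control embryos for each nucleolar gene (DESeq2, bars are SE), fitted over both batches with a batch term and in each batch alone. *Polr1a* lies lowest, at -0.79 over both batches, and *Fbl* highest, at 0.60, with -0.09 for *Rrn3* combining 0.18 in batch 1 and -0.31 in batch 2.

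More of the 10 genes differed between batches than between genotypes. *Fbl*, *Dkc1*, *Nop56* and *Polr1b* were higher in batch 1 and *Npm1* was lower, with genotype as a term in the same fit. These 4 genes called higher and 1 called lower stand beside 14.0% of all genes tested called higher and 13.8% lower. *Ubtf* just missed, at 0.56 ± 0.22 (log2, SE; DESeq2 adjusted p = 0.0530), and was called with TMM factors (0.0471), with the filter on counts before the fit (0.0400), and without control replicate 6 (0.00204) or mutant replicate 2 (0.0496). Isolation, processing and the number of PCR cycles all changed with the batch and cannot be told apart.

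*Npm1* was the clearest fall. Its TPM was 3225 to 4100 in the 5 embryos of batch 1 and 4592 to 5821 in the 6 of batch 2, without overlap, as for 3.01% of genes tested. On the log2 scale it differed by -0.64 ± 0.13 (SE; adjusted p = 3.81e-05 with DESeq2 and 0.00143 with edgeR). *Nop56* went the other way, at 326 to 410 TPM in batch 1 and 177 to 262 in batch 2, with a log2 fold change of 0.64 ± 0.14 (SE). The ratio of *Npm1* to *Nop56* TPM was therefore 8.69 to 11.3 in batch 1 and 22.2 to 30.6 in batch 2.

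*Dkc1* had 229 to 364 TPM in batch 1 and 99.2 to 192 in batch 2 (log2 fold change 0.81 ± 0.19, SE). *Nop58* had 872 to 981 and 516 to 759 TPM, respectively. *Nop56*, *Dkc1* and *Nop58* did not overlap between the batches on this scale, which held in this direction for 9.71% of genes tested. On normalised counts *Nop58* did overlap, and its log2 fold change was 0.21 ± 0.14 (SE), with an adjusted p of 0.293 (DESeq2). The TPM scale itself moved the median of all genes by 0.20 (log2) towards batch 1, so the 0.55 of *Nop58* on log2(TPM + 1), which limma called (adjusted p = 0.00541), includes that shift.

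*Fbl* had the largest batch difference with all embryos in the DESeq2 fit, 0.92 ± 0.25 (SE), although *Dkc1* exceeded it without control replicate 2 (0.85 against 0.77), control replicate 4 (0.82 against 0.78) or control replicate 5 (0.90 against 0.85). *Fbl* had 50.4 to 113 TPM in batch 1 and 20.8 to 66.8 in batch 2, and these ranges overlapped. *Polr1b* gave 0.50 ± 0.16 (SE) and lost its call without mutant replicate 4 or mutant replicate 5, with adjusted p of 0.0538 and 0.0650. In control embryos alone, 3 of the 10 genes were called, namely *Npm1*, *Fbl* and *Nop56*, and *Dkc1* had an adjusted p of 0.0589. Over all genes tested, 14.5% were called in control embryos alone, against 27.9% with all embryos. *Polr1a* (-0.44 ± 0.20, SE), *Rrn3* (-0.18 ± 0.15) and *Ncl* (-0.05 ± 0.14) were not called. *Polr1a* was called with the effective-length offset (-0.61, adjusted p = 0.0450) and without mutant replicate 5 (-0.62, 0.0147), both with DESeq2. On the log2 scale *Ncl* and *Rrn3* turned positive with TPM, at 0.28 and 0.04. Both values include the shift of that scale, on which the median of all genes was 0.20.

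**Figure D4:**
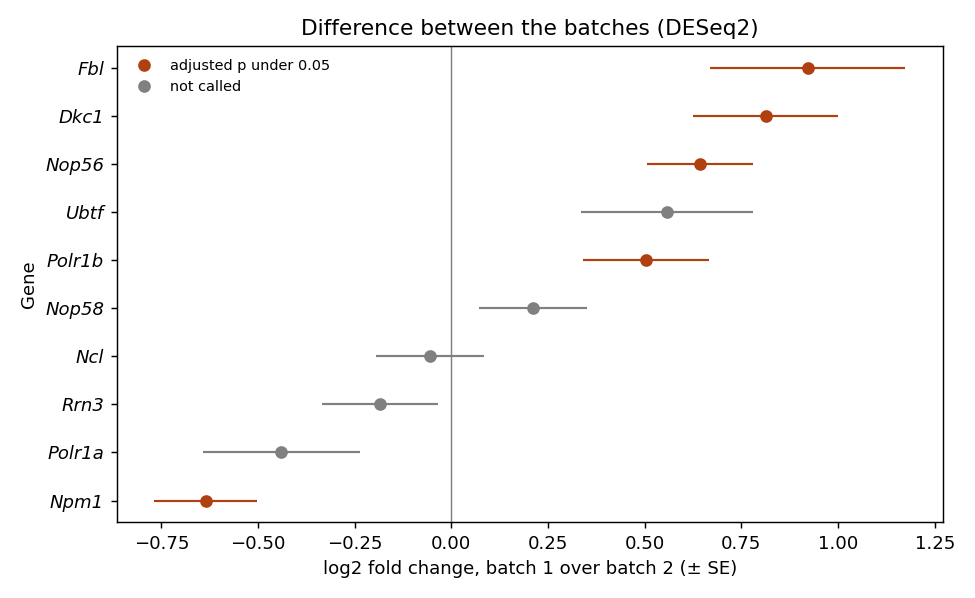
Log2 fold change of batch 1 over batch 2 for each nucleolar gene, with genotype as a term (DESeq2, bars are SE), where coloured points passed an adjusted p of 0.05. *Fbl*, *Dkc1*, *Nop56* and *Polr1b* lie above 0 and *Npm1* below, at -0.64. On the TPM scale, where the median of all genes was 0.20, *Ncl* and *Rrn3* would lie above 0, at 0.28 and 0.04.

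The remaining machinery of ribosome assembly was read from a list of 131 genes, of which 130 were tested. None was called in either direction between mutants and controls with DESeq2, and 10 (7.69%) had an unadjusted p under 0.05, against 11.9% of all genes tested. With edgeR and with limma on log2(TPM + 1), none was called either. The median log2 fold change of the list was 0.04, against 0.00 for all genes tested. Between batches, 47 of the 130 were called higher in batch 1 and 11 lower, with a median of 0.21. Of all genes tested, 14.0% were called higher and 13.8% lower, with a median of 0.00, against 36.2% and 8.46% of the list.

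RNA polymerase I subunits other than the members numbered 11, and their median log2 fold change was -0.04. *Polr1c*, shared with RNA polymerase III, had the highest value among well-expressed subunits, 0.27 ± 0.14 (SE), and *Polr1e* the lowest, -0.21 ± 0.22. *Polr1d*, also shared with RNA polymerase III, was at -0.14 ± 0.17 (SE). The 8 polymerase I factors had a median of 0.21, from -0.31 ± 0.16 for *Taf1d* to 0.47 ± 0.28 for *Tcof1*, the treacle gene. *Taf1b*, of the promoter selectivity factor, was at 0.22 ± 0.19 (SE). None of these values passed the test.

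The partners of fibrillarin and dyskerin also gave no call. Of 13 snoRNP core and assembly genes the median was 0.00. *Snu13*, the remaining core protein of box C/D particles, averaged 1035 ± 171 TPM (SD) over the 6 controls and 849 ± 121 (SD) over the 5 mutants, a difference of -0.24 ± 0.17 on the log2 scale (SE). *Nop10*, *Nhp2* and *Gar1*, which join dyskerin in box H/ACA particles, were at -0.15 ± 0.23, 0.10 ± 0.12 and 0.59 ± 0.38 (SE). *Gar1* also differed between batches, by 2.25 on the log2 scale with an adjusted p of 2.34e-07 (DESeq2). *Naf1*, an assembly factor that GAR1 replaces, had the lowest value among well-expressed genes of this group, -0.52 ± 0.31 (SE).

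The nucleophosmin relatives gave the most distant values, in opposite directions. *Npm2*, the oocyte nucleoplasmin, averaged 20.3 ± 6.57 TPM (SD) over the 6 controls and 11.9 ± 4.33 (SD) over the 5 mutants, a log2 difference of -0.91 ± 0.34 (SE; DESeq2 adjusted p = 0.190). *Npm3* averaged 7.97 ± 3.35 TPM (SD) and 16.2 ± 7.97 (SD) respectively, a log2 difference of 1.05 ± 0.34 (SE; DESeq2 adjusted p = 0.0810). Both were low in count, with means of 67.4 and 43.5 normalised counts. Of the better expressed genes of that group, *Mybbp1a* was highest at 0.31 ± 0.20 (SE) and *Rsl1d1* lowest at -0.11 ± 0.16.

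The 40 genes of the small subunit processome had a median of 0.04, from -0.54 ± 0.23 (SE) for *Imp3* to 0.34 ± 0.27 for *Wdr46*. The 39 genes of large subunit assembly had a median of 0.06, from -0.52 ± 0.22 (SE) for *Tex10* to 0.43 ± 0.17 for the helicase gene *Ddx56*. The 12 genes of the exosome and rRNA processing nucleases had a median of -0.02, with *Exosc1* at -0.42 ± 0.20 (SE) and *Exosc10*, the nuclear exoribonuclease, at 0.45 ± 0.25. The call count was 0 in each of these groups with DESeq2. Without control replicate 2, *Ddx56* (0.55), *Imp3* (-0.69) and *Npm2* (-1.08) were called, and without control replicate 3 *Npm3* (1.24) was, with adjusted p of 0.0334 to 0.0494.

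**Figure D5:**
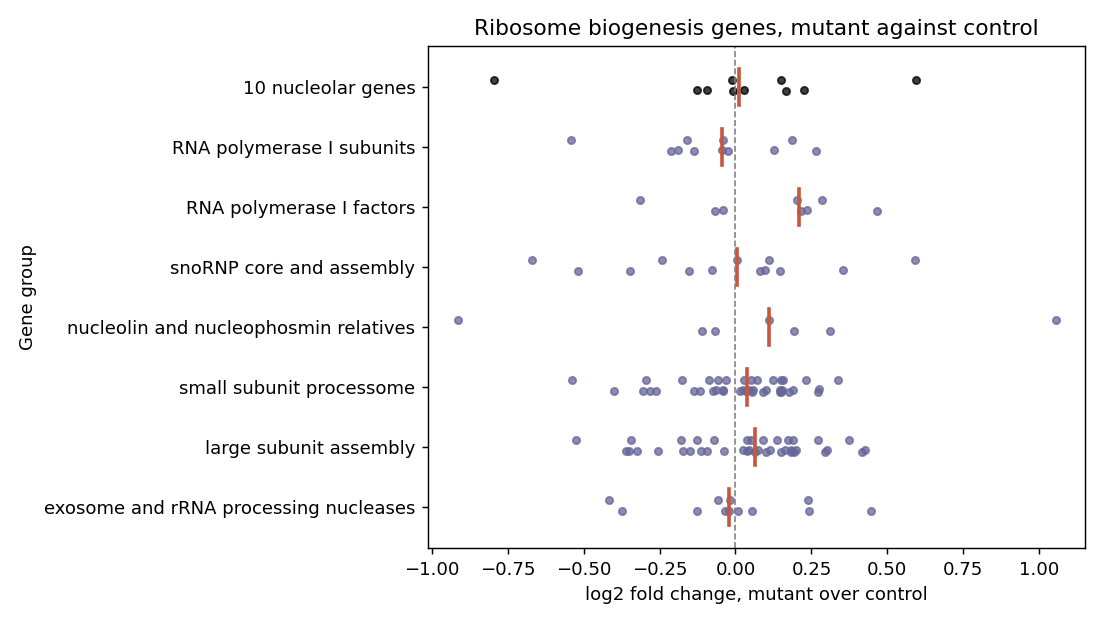
Log2 fold change of mutant over control embryos (DESeq2) for the 10 nucleolar genes and for each group of other ribosome biogenesis genes. Points are genes, red lines are group medians (from -0.04 for polymerase I subunits to 0.21 for polymerase I factors) and the dashed line is the median of all genes tested.

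*Polr1a* and *Nop56* are among the genes the study lists near PRDM10 sites in mouse embryonic stem cells. So are 7 of the 131 other ribosome assembly genes. None of these 7 was called between genotypes with DESeq2, at log2 fold changes of -0.54 to 0.27 (median 0.12). The promoters of *Polr1a* and *Nop56* are shown because of that listing, as 250 bases before the transcription start in RefSeq (GRCm38.p6), both on the plus strand. The *Polr1a* stretch is chr6:71908803-71909052 and the *Nop56* stretch chr2:130274162-130274411. The study's gel-shift probes, one with an intact and one with a mutated site, differ in 8 letters, which with N for the rest spell TGGTNNNGCCC. No promoter of the 8 members in the RefSeq table held that pattern on either strand in its 300 bases, and 1.45% of the 32851 promoters did. Keeping only the first 4 and the last 2 letters, as TGGTNNNNNCC, a match was found in 13.8% of promoters, including *Nop56* alone among these 8, with 2 matches, on opposite strands and not overlapping. Capitals mark these.
Nop56: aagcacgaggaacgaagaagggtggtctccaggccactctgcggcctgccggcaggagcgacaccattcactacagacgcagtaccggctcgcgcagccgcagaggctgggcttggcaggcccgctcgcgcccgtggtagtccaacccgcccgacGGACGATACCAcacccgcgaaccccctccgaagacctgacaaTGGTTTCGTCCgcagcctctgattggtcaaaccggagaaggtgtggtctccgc
Polr1a: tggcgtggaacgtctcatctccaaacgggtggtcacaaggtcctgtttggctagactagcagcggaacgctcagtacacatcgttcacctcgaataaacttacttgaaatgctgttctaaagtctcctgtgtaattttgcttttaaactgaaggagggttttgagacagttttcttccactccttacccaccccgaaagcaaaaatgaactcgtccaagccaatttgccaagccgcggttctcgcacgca
*Nop56* counts did not differ beyond replicate spread between the groups (0.15 ± 0.14, SE), and *Polr1a*, with no match in this window, was the one called lower. The study assigned sites to genes over a span that includes the gene body, so its sites need not lie in these windows. A link between such matches and the changes was not tested.

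Other genes overlap several of the members. The gene span of *Nop56* (chromosome 2 from 130274430 to 130279313, plus strand) overlaps that of *Idh3b*, a Krebs cycle enzyme gene on the other strand, whose expected count was a median 59.6% of that of *Nop56*. *Dkc1* (chromosome X from 75095854 to 75109777, plus strand) overlaps *Mpp1* on the other strand, at 11.3%. The kit does not mark strand, so reads where the exons meet could not be assigned by it. The spans of *Ncl*, *Nop56*, *Nop58* and *Dkc1* also contain snoRNA genes, and the largest count among them was 18 reads.

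*Ncl* lies on chromosome 1 from 86344719 to 86359400 (minus strand), *Nop58* on chromosome 1 from 59684971 to 59719044 (plus strand) and *Npm1* on chromosome 11 from 33152287 to 33163206 (minus strand). *Fbl* lies on chromosome 7 from 28169710 to 28179269 (plus strand) and *Polr1b* on chromosome 2 from 129100995 to 129126594 (plus strand). *Ubtf* lies on chromosome 11 from 102304560 to 102319742 (minus strand) and *Rrn3* on chromosome 16 from 13780708 to 13814839 (plus strand). The other 10447 genes tested were ranked by likeness of pattern to each member, as the root mean square difference of centred log2 normalised counts over the 11 embryos. The closest to *Polr1a* was *Pcgf5* (0.25), with a genotype change of -0.56. The closest to *Fbl* was *Fen1* (0.28), with 0.59 between genotypes and 0.99 between batches. Since likeness over the same embryos chose these genes, changes near those of the member follow from the choice. *Map1lc3b* was closest to *Npm1* (0.094), *Tsc22d4* to *Ubtf* (0.089), *Prc1* to *Nop58* (0.11), *Ints7* to *Rrn3* (0.12) and *Zc3h14* to *Ncl* (0.13). *Polr3c* was closest to *Nop56* (0.14), *Crtap* to *Polr1b* (0.15) and *Fam136a* to *Dkc1* (0.19).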

How the data were processed

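Single-embryo RNA-seq libraries of 6 control and 5 mutant embryos were analysed, grouped by GEO's labels. The authors mapped reads to GRCm38 with STAR (2.6.0c, from the submitters' processing notes) and quantified genes with RSEM. The deposited tables hold an expected count per gene, which need not be whole because the authors let RSEM divide shared reads. They also hold the TPM, which the authors' tool scaled to gene length and library, an effective length, and an SD of the count. Among the deposited files, a comparison table with the authors' fold changes and p-values was not used. Symbols and coordinates came from GENCODE M21 of the same build, and 54079 of 54146 gene identifiers matched.

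Expected counts were rounded and tested with DESeq2 (1.42.0, Wald test, batch and group as terms, R 4.3.3), chosen because the study used it, with Benjamini-Hochberg adjustment. A gene was called at an adjusted p under 0.05 if its normalised counts averaged over 10. Batch difference and interaction came from the same kind of fit. Alternatives were edgeR (4.0.16) quasi-likelihood, limma (3.58.1) on log2(TPM + 1) and log2(TPM + 0.1), other filters and scalings, single batches, and omission of each embryo in turn. The length offset within each batch was added after seeing the data. The fits were tested on simulated data, where DESeq2 made false calls more often than its nominal rate and edgeR did not. *Prdm10* and *Polr1a* levels were compared by exact permutation over 462 splits of the embryos and, as an alternative added after seeing the data, over 200 splits within batches on batch-centred values. Nothing in the sources says whether embryos shared a litter, so p-values measure the spread between these embryos.

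The 10 genes and all lists were chosen with earlier results of these data known. Named genes were the 10, any gene of the pathway list that passed, the highest and lowest of each group above a mean count of 100, the 10 closest partners set by symbol, genes overlapping a member, and the gene of most similar pattern to each member. Genes of the list called only without 1 embryo were named after their values were seen. The promoters were those of members that the study lists as bound.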

Additional observations from a re-analysis of the deposited data

Results flagged for a closer look

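*Ncl* in control replicate 1 had a normalised count of 8843, apart from the other controls at 5967 to 6856. *Rrn3* in the same embryo had 152 TPM, against 110 to 125 TPM in the other controls. Each gap was larger than Dixon's test at the 95% level allows for 6 samples. Chance flags about 1 in 20 groups, and 40 groups of values were examined. *Rrn3* separated mutants from controls in opposite directions in the batches, with an interaction of 0.485 on the log2 scale that did not pass the DESeq2 interaction test (adjusted p = 1.00).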

How the results depend on the processing

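No paired analysis was possible because replicate numbers were given in order within groups and do not pair embryos. Directions held under every alternative run for *Fbl*, *Nop56*, *Polr1b*, *Ubtf* and *Polr1a* between genotypes. The count of genes called between genotypes was 151, and it was 35 with edgeR, 22 and 21 with limma on log2(TPM + 1) and log2(TPM + 0.1), 51 without a batch term, 78 and 48 in batches 1 and 2 alone, 81 and 51 there with the length offset, and 90 to 265 with 1 embryo left out. The 1 member called became 0 with edgeR, either limma fit, the length offset, no batch term and each batch alone (with or without the offset), and 0 to 1 with an embryo left out. For *Polr1a* the change was -0.79 with edgeR and without a batch term, -0.54 with limma and with the offset, -0.59 with log2(TPM + 0.1), -0.46 and -1.06 in batches 1 and 2 alone, -0.43 and -0.63 there with the offset, and -0.97 to -0.71 with an embryo left out. Of 11 such fits, 4 lost the call. Pathway genes called went from 0 to between 0 and 3 with an embryo left out.

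Members near 0 turned sign without a call. *Ncl* was 0.0189 with the offset, 0.0154 with both limma fits and 0.11 with the offset in batch 1. *Npm1* was 0.19 in batch 1 alone (0.16 with the offset), 0.0114 without a batch term and -0.0735 to 0.0326 with an embryo left out. *Nop58* was 0.0254 in batch 2 alone (0.12 with the offset), 0.0350 with the offset over both batches, 0.0133 with both limma fits and -0.0786 to 0.0674 with an embryo left out. *Dkc1* was -0.18 in batch 2 alone (-0.11 with the offset) and -0.0357 to 0.18 with an embryo left out. *Rrn3* was 0.18 in batch 1 alone, with and without the offset.

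Between batches, control embryos alone gave 1498 genes, against 2911, and 3 members, against 5, and 4 to 6 members were called with an embryo left out. The batch change of *Ncl* was 0.0522 with the offset, 0.28 and 0.29 with limma and -0.11 to 0.0396 with an embryo left out, and that of *Rrn3* was 0.0436 and 0.0440 with limma. The median batch change of all genes was 0.20 and 0.25 in these limma fits. With limma on log2(TPM + 1), 23.7% of genes called between batches were lower, against 49.6% with DESeq2. Between genotypes, 95.5% were lower, against 60.9%. Genes with an interaction numbered 6, against 0 with edgeR (339 at an unadjusted p under 0.05), 1 with limma and 0 to 22 with an embryo left out. The share of the 10 genes was a median 0.629% of TPM and 0.717% of summed counts. Permuting embryos within batches gave p under 0.05 for *Prdm10* normalised counts (a batch-centred difference of -91.6) and *Polr1a* TPM (-3.82), which all splits did not. The causes were not tested.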
